A study of Mus musculus with 6 samples.

Results

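NF-kB is a family of dimeric transcription factors, and the 10 genes described here encode its 5 subunits (Nfkb1, Nfkb2, Rel, Rela and Relb) and 5 IkB proteins that bind these subunits (Nfkbia, Nfkbib, Nfkbie, Nfkbiz and Bcl3). They were taken as the rows of the count table whose gene symbol equalled one of these names, which gave 10 of 33000 genes. All 10 passed the filter on low counts, which left 15341 genes for testing, although Bcl3 passed only through its level in GFAP-IL6. Bcl3 rose 9.35-fold in cortex of GFAP-IL6 mice and was the only one of the 10 past an adjusted p of 0.05. The 5 subunit genes each had a higher level in every GFAP-IL6 library than in any wild-type (WT) library, with log2 fold changes of 0.30 to 0.69, and none of them passed that threshold. Of all genes tested, 13.8% were separated in this way and 2.65% were called as higher. Nfkbia, Nfkbib and Nfkbie, the classical IkB genes, had overlapping groups.

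RNA was sequenced from the frontal cortex of 6 mice of the C57BL/6 strain aged 3 months, of which 3 were homozygous for the GFAP-IL6 transgene and 3 were WT. In GFAP-IL6 mice the cytokine IL6 is expressed by astrocytes under control of the Gfap promoter. Each library was made from 1 mouse by the TruSeq mRNA protocol, the reference protocol of the study. The sources used here do not say whether the WT mice were littermates and give no sex, and the groups share the strain, age, tissue and protocol.

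In resting cells, classical IkB proteins hold NF-kB dimers in the cytoplasm, and signals from cytokine or pattern-recognition receptors activate the IkB kinases, which mark IkB for degradation and so release the dimers to the nucleus. Rela, Rel and Relb carry a transactivation domain, whereas Nfkb1 and Nfkb2 encode precursors that are processed to subunits without one. Bcl3 and Nfkbiz are atypical IkB proteins that act in the nucleus together with Nfkb1- or Nfkb2-derived subunits. Several IkB and subunit genes are themselves NF-kB targets, and in brain the pathway is used by glia, endothelial cells and neurons.

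Library totals were 11591066, 16877001 and 16122030 counts in WT against 11072008, 7559524 and 8860654 counts in GFAP-IL6. The GFAP-IL6 libraries were all shallower, with means of 14.9 ± 2.86 M counts for WT against 9.16 ± 1.78 M (SD, n = 3 each, M for mega) and p = 0.10 in an exact permutation test (two-sided), the lowest value possible for groups of 3. As a check of the labels, the counts of Il6 were 0, 2 and 0 in the WT libraries and 12, 10 and 24 in those of GFAP-IL6, and Gfap had 878 to 2059 and 4889 to 7795 counts. Over the 15341 genes tested, the median log2 fold change was -0.004 with quartiles of -0.146 and 0.160, and 439 genes passed an adjusted p of 0.05, of which 92.7% were higher in GFAP-IL6 by edgeR, against 80.9% of the calls of DESeq2. Levels are given in CPM, counts scaled to 1 M per library after TMM normalization. All 10 neuron markers passed the low-count filter, summed to between 11600 and 13430 CPM in each library, and gave no call. Of these 10, 8 had a log2 fold change below 0, and 4 (Snap25, Gad1, Gad2 and Stmn2) were lower at an unadjusted p under 0.05 and in every GFAP-IL6 library than in any WT library. Of all genes tested, 49.4% had a log2 fold change above 0. The shares of all genes lower at an unadjusted p under 0.05 or in every GFAP-IL6 library were not counted. The 6 choroid plexus markers summed to 616 CPM in WT replicate 3 and to between 4.62 and 59.6 CPM in the other 5 libraries. The 10 oligodendrocyte markers summed to 3434, 6312 and 5691 CPM in WT and to 4494, 3476 and 5406 CPM in GFAP-IL6, and gave no call. Without WT replicate 3, 346 genes were called in place of 439, and Nfkb1 had an adjusted p of 0.124. Results without this library are given for some other genes below.

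Among the 10 genes, 1 was past an adjusted p of 0.05 as higher and 0 as lower, where 2.65% and 0.209% of all genes tested were called in these directions. The same gene, Bcl3, was the only one that also exceeded an absolute log2 fold change of 1, the further threshold of the study, which 1.38% of all genes met. At an unadjusted p under 0.05, 7 of the 10 were higher, against 11.1% of all genes, and 0 were lower. The GFAP-IL6 libraries all lay above the WT libraries in 7 of the 10, against 13.8% of all genes. The median log2 fold change was 0.41 over the 10 genes, 0.46 over the subunits and 0.28 over the IkB genes. Bcl3 passed the low-count filter only through its level in GFAP-IL6. The counts above and the medians over the 10 genes and the IkB genes thus partly follow from the filter. As these were bulk samples, a higher level in each cell of a type and a larger number of such cells cannot be told apart. Of 10 microglia markers 8 were called as higher, and their summed level was 408 to 499 CPM in WT and 808 to 933 CPM in GFAP-IL6. Of 10 endothelial markers 7 were called as higher, with sums of 205 to 228 CPM and 358 to 426 CPM. None of 10 astrocyte markers was called, and their sums were 5389 to 6756 CPM and 5900 to 6876 CPM. Slc1a2 alone had 3334 to 4376 CPM. At an unadjusted p under 0.05, 1 of these markers was higher (Aqp4, log2 fold change of 0.42) and 1 lower (Aldh1l1, -0.21). Gfap, an astrocyte gene left off this list, had a log2 fold change of 2.84 with an adjusted p of 5.49e-06. Of 14 leukocyte markers, 10 were at 3 counts or fewer in every library and Cd3d was at 0 in all of them, and their sums were 1.31 to 4.06 CPM in WT and 3.17 to 3.85 CPM in GFAP-IL6. The ranges of the microglia and endothelial sums thus did not overlap between groups, and those of astrocytes and leukocytes did. The leukocyte overlap came with Cd4, without which the other 13 markers summed to 0.523 to 1.43 CPM in WT and 1.58 to 3.24 CPM in GFAP-IL6, a split made after the values were seen. Cd3e, Cd8a, Nkg7 and Ccr2 were higher in every GFAP-IL6 library than in any WT library, on at most 14 counts a library. The part of microglia, endothelial cells, astrocytes and leukocytes in the values of the 10 genes was not tested.

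**Figure D1:**
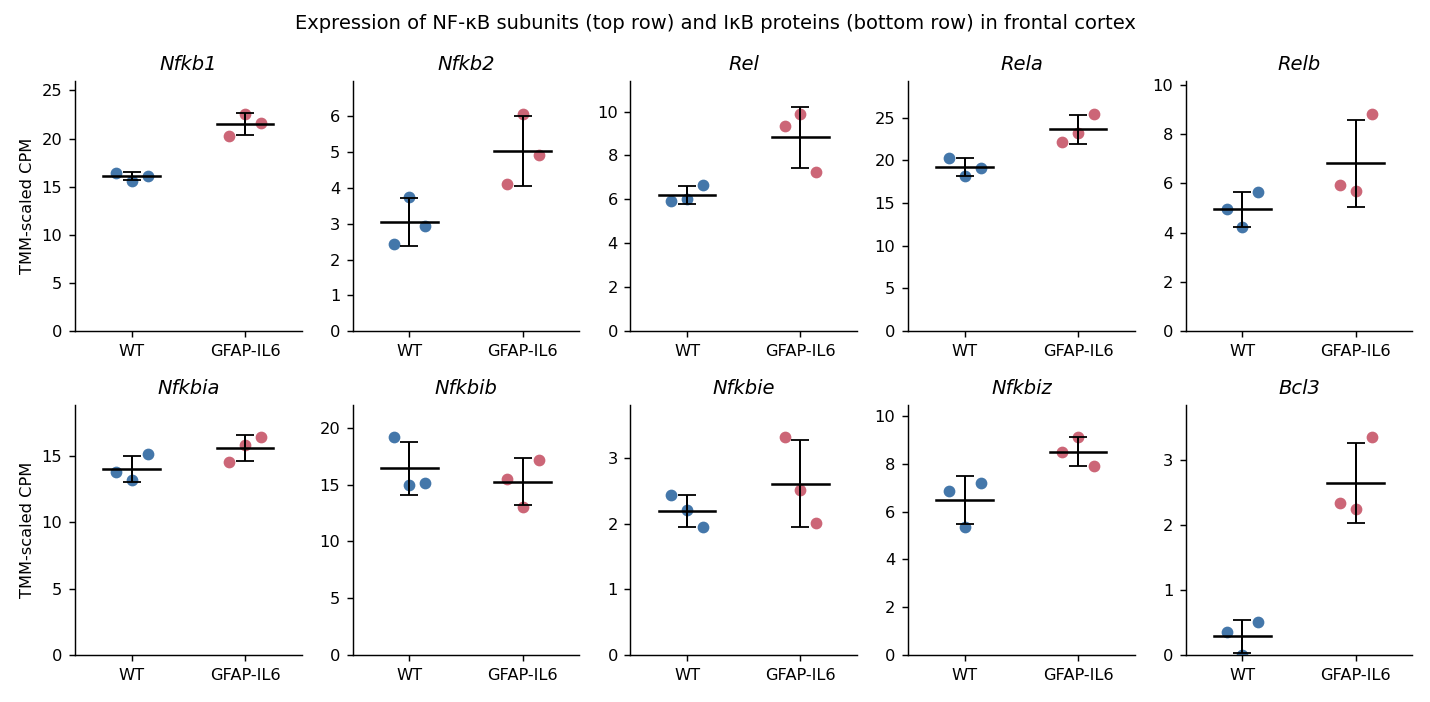
TMM-scaled CPM (vertical axes, each from 0) of the 10 genes in 3 WT and 3 GFAP-IL6 libraries, with subunits in the top row and IkB genes in the bottom row; points are libraries, and lines and bars are mean and SD. All GFAP-IL6 points lie above all WT points for the 5 subunits, Nfkbiz and Bcl3, and the groups overlap for Nfkbia, Nfkbib and Nfkbie.

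Bcl3 (ENSMUSG00000053175.14, chr7:19808462-19822770, minus strand, GRCm38) is an atypical IkB protein that joins homodimers of Nfkb1- or Nfkb2-derived subunits in the nucleus and can turn them into activators. It had 4, 0 and 8 counts in WT against 26, 17 and 30 counts in GFAP-IL6. In CPM these were 0.348, 0 and 0.502 in WT and 2.33, 2.25 and 3.35 in GFAP-IL6. The groups were thus well apart, and the WT library without counts allows a level of up to 0.179 CPM at the floor of 3 counts. Means were 0.284 ± 0.257 and 2.64 ± 0.614 CPM (SD, n = 3 each). Bcl3 rose by a log2 fold change of 3.23 ± 0.54 (SE, edgeR), or 9.35-fold with a 95% interval of 4.17 to 20.96, with an adjusted p of 0.00463, and it ranked 172 of all genes by p. The estimate rested on few WT counts and moved to 2.56 without WT replicate 2 and to 4.10 without WT replicate 3, to 3.87 with limma-voom and to 4.34 after thinning to the smallest library. Without GFAP-IL6 replicate 3 it was 3.03 with an adjusted p of 0.0586, past the threshold no longer, and the prior of DESeq2 shrank it to 0.62 with an adjusted p of 6.74e-05. An antisense gene on the opposite strand, Gm16175, shares 161 exon bases with Bcl3 and had at most 4 counts in any library.

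The 5′ ends of the genes were searched for the 10-base kB consensus, the sequence class bound by NF-kB dimers, in windows of 250 bases before to 50 bases after each start from RefSeq (GRCm38.p6). Of the 10 genes 7 had a window, and 5 of these 7 (71.4%) held the consensus on either strand, in 7 of their 9 windows, against 8.46% of 32851 windows of all genes. The share of all genes with a match in any window was not counted. Overlapping windows of Nfkb2 held the same match, at chr19:46305705-46305714, so the count of windows includes it more than once. A match is a description of letters and not of binding. The STAT palindrome TTCNNNGAA, the class bound downstream of IL6, was in 1 of the 7 genes (Nfkb2), in 1 of the 9 windows, and in 8.3% of all windows. Printed here, to 30 bases after the start and 5′ to 3′ on the strand of the gene, are 4 of the 7 windows with a match, each from a different gene, with kB matches in capitals and overlapping matches joined. They are Bcl3 (chr7:19822726-19823005, minus strand), the gene called, Nfkbia (chr12:55492618-55492897, minus strand), whose groups overlapped, and Rel (chr11:23770940-23771219, minus strand) and Nfkb2 (chr19:46304487-46304766, plus strand, the first of 3 starts), subunit genes whose groups did not.
Bcl3: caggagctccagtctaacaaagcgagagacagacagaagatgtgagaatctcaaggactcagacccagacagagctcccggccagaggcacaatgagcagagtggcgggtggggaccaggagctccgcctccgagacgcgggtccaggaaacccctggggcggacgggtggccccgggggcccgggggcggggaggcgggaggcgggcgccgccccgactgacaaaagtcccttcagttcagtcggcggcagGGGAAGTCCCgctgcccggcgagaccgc
Nfkbia: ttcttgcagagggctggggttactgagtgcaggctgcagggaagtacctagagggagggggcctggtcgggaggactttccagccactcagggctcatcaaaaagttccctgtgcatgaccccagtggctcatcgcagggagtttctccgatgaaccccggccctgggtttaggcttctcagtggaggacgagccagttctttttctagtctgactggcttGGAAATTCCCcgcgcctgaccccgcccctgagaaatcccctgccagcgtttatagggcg
Rel: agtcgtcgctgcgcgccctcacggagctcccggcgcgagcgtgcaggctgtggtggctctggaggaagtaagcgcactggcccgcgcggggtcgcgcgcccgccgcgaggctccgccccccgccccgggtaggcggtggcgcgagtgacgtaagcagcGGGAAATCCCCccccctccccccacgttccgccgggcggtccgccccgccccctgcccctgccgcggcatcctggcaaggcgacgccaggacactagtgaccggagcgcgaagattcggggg
Nfkb2: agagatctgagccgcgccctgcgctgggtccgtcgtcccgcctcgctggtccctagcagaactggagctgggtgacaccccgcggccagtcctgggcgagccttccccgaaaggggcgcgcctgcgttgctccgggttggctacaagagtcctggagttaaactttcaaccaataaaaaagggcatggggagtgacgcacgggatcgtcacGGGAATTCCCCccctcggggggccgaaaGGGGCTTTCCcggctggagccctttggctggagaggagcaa
The match in Bcl3 lay 3 to 12 bases into the transcript, at chr7:19822744-19822753. That in Nfkbia lay at -29 to -20 from the start, that in Rel at -92 to -82, and those in Nfkb2 at -39 to -29 and -11 to -2. Nfkbie also held a match, at -106 to -97, and the windows of Rela and Nfkbib held none. A kB match was thus present both in genes whose groups did not overlap and in genes whose groups did. Among other genes of the pathway with a window, the consensus was in 3 of 18 IkB kinases and upstream genes (16.7%), in 6 of 13 other inhibitors (46.2%) and in 10 of 23 NF-kB target genes (43.5%).

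Rela (ENSMUSG00000024927.7, chr19:5637483-5648130, plus strand) encodes the subunit with a transactivation domain that pairs with the Nfkb1 product in the most common dimer. Its levels were 20.3, 18.2 and 19.2 CPM in WT and 22.1, 23.2 and 25.5 CPM in GFAP-IL6. The groups did not overlap, with a log2 fold change of 0.30 ± 0.10 (SE, 95% interval 0.08 to 0.52) and an adjusted p of 0.141. Rel (ENSMUSG00000020275.9, chr11:23736847-23770970, minus strand), a subunit best known from lymphocytes and myeloid cells, had 5.92, 6.02 and 6.66 CPM in WT and 9.32, 9.90 and 7.26 CPM in GFAP-IL6. Replicates 1 and 2 of GFAP-IL6 stood well above WT and replicate 3 only just. For Rel the log2 fold change was 0.50 ± 0.17 (SE, 95% interval 0.15 to 0.86) with an adjusted p of 0.126. Relb (ENSMUSG00000002983.14, chr7:19606217-19629438, minus strand), the partner of the Nfkb2 product in the alternative pathway, had 4.97, 4.24 and 5.65 CPM in WT and 5.92, 5.68 and 8.82 CPM in GFAP-IL6. Replicates 1 and 2 of GFAP-IL6 were just above the highest WT library, and replicate 3 was further up. Relb had a log2 fold change of 0.46 ± 0.21 (SE, 95% interval 0.00 to 0.92) with an adjusted p of 0.241.

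Nfkb1 (ENSMUSG00000028163.15, chr3:135584655-135691547, minus strand) encodes the precursor of the subunit that pairs with Rela. It had 16.5, 15.6 and 16.1 CPM in WT and 20.3, 22.6 and 21.7 CPM in GFAP-IL6, on 171 to 262 counts a library. The gap between the groups was wider than the spread within either of them, and the SD was 0.421 CPM in WT and 1.17 CPM in GFAP-IL6 (n = 3 each). The log2 fold change was 0.42 ± 0.10 (SE, 95% interval 0.19 to 0.64) with an unadjusted p of 0.00147 and an adjusted p of 0.0507, just short of the threshold. Nfkb1 passed it with upper-quartile scaling (0.0477), without the low-count filter (0.0301), with a minimum mean of 1 CPM (0.0492) and without WT replicate 1 (0.0410), and did not with DESeq2 (0.116), limma-voom (0.0555) or counts thinned to the smallest library (0.162). Nfkb2 (ENSMUSG00000025225.12, chr19:46304320-46312385, plus strand), the precursor whose processing defines the alternative pathway, had 2.44, 3.76 and 2.95 CPM in WT and 4.12, 6.08 and 4.91 CPM in GFAP-IL6. The lowest GFAP-IL6 library was 4.12 CPM against 3.76 CPM in the highest WT library. The log2 fold change of Nfkb2 was 0.69 ± 0.23 (SE, 95% interval 0.18 to 1.19), with an adjusted p of 0.134. Nfkb2 shares 531 exon bases with AC114539.1, a noncoding gene on the opposite strand that was not analysed here. It also shares 299 with Psd, likewise on the opposite strand, which had 3817 to 7733 counts a library against 28 to 63 for Nfkb2. Whether strand was used in the counting is not stated in the sources, so reads of the overlap cannot be told apart.

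**Figure D2:**
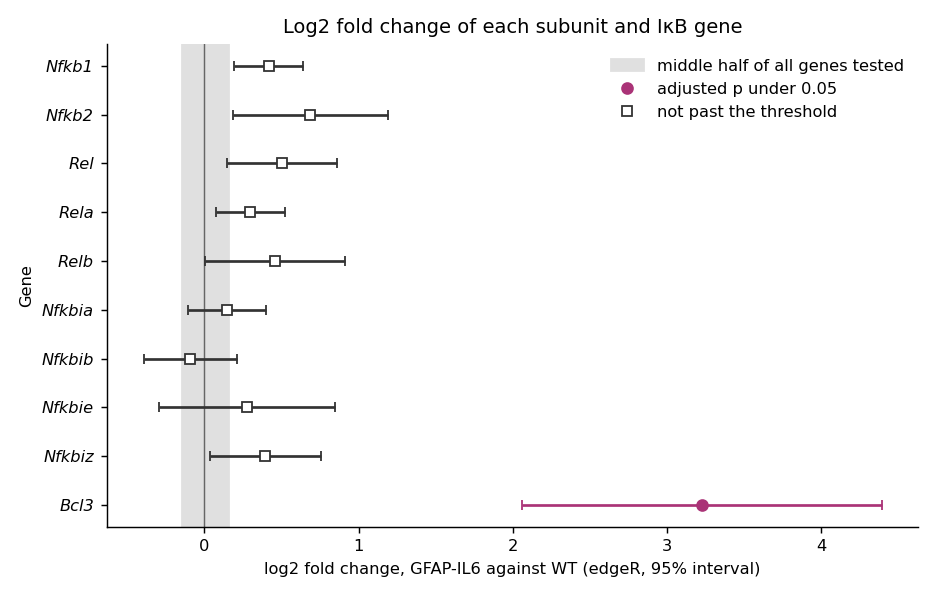
Log2 fold change of GFAP-IL6 against WT (horizontal axis) with 95% intervals by edgeR for the 10 genes, with the grey band marking the quartiles of all genes tested (-0.146 to 0.160). Bcl3 stands at 3.23 and is the only filled point (adjusted p under 0.05), the 5 subunits lie between 0.30 and 0.69, and the intervals of Nfkbia, Nfkbib and Nfkbie include 0.

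Nfkbia (ENSMUSG00000021025.7, chr12:55489410-55492647, minus strand) encodes IkB alpha, the classical inhibitor that is resynthesized after NF-kB activation and ends the response. It had 13.8, 13.2 and 15.1 CPM in WT and 14.5, 15.9 and 16.4 CPM in GFAP-IL6. GFAP-IL6 replicate 1 fell inside the WT range. The log2 fold change was 0.15 ± 0.12 (SE) and its 95% interval -0.11 to 0.40, at an adjusted p of 0.491. Nfkbib (ENSMUSG00000030595.13, chr7:28758251-28767512, minus strand), encoding IkB beta, had 19.2, 15.0 and 15.1 CPM in WT and 15.5, 13.1 and 17.2 CPM in GFAP-IL6. WT replicate 1 was the highest of the 6 libraries and the groups overlapped. The log2 fold change of Nfkbib was -0.09 ± 0.14 (SE, 95% interval -0.39 to 0.21) with an adjusted p of 0.741, and it was 0.03 without WT replicate 1. Nfkbib shares 314 exon bases with Ccer2 (7 to 21 counts) and 42 with Sirt2 (799 to 2034 counts), both on the opposite strand. Nfkbie (ENSMUSG00000023947.7, chr17:45555703-45563169, plus strand), encoding IkB epsilon, had 2.44, 2.21 and 1.95 CPM in WT and 3.32, 2.51 and 2.01 CPM in GFAP-IL6. The groups overlapped, with 18 to 37 counts a library, and the log2 fold change was 0.28 ± 0.26 (SE, 95% interval -0.29 to 0.85) with an adjusted p of 0.574.

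Nfkbiz (ENSMUSG00000035356.14, chr16:55811375-55838899, minus strand) encodes IkB zeta, a nuclear protein needed for a subset of secondary inflammatory genes. It had 6.88, 5.37 and 7.22 CPM in WT and 8.52, 9.11 and 7.93 CPM in GFAP-IL6. The groups did not overlap, and the 3 GFAP-IL6 libraries lay closer together than those of WT. The log2 fold change was 0.40 ± 0.17 (SE, 95% interval 0.03 to 0.76) with an unadjusted p of 0.0346 and an adjusted p of 0.209. Thus of the 2 nuclear IkB genes only Bcl3 passed the threshold, and the difference between their fold changes was not tested.

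To compare levels between genes, counts were also scaled by the gene length of the table to TPM (transcripts per 1 M, which have the same sum in every library). Nfkbia had the highest mean over the 6 libraries at 26.8 TPM, followed by Rela at 22.5, Nfkbib at 21.2, Nfkb1 at 13.01, Relb at 7.596, Nfkbiz at 5.18, Nfkb2 at 3.51, Rel at 2.88, Nfkbie at 2.83 and Bcl3 at 2.30 TPM. From Nfkbib down to Nfkb2 the ranges of neighbours in this order did not overlap in either group. The order depends on the gene lengths used, which were 4124 bases for Nfkb1 and 2211 for Relb. All annotated exons of these genes cover 12061 and 3885 bases, and an order by such lengths was not tested. The ranges of Nfkb2 and Rel and of Rel and Nfkbie overlapped in both groups, those of Rela and Nfkbib in WT, and those of Nfkbia and Rela in GFAP-IL6, although Nfkbia was above Rela in each of the 6 libraries. Bcl3 was the lowest of the 10 in every WT library, at 0.538, 0 and 0.755 TPM. In GFAP-IL6 it was at 3.71, 3.51 and 5.26 TPM, ranking 8, 9 and 7 of the 10 and overlapping with Nfkbie.

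**Figure D3:**
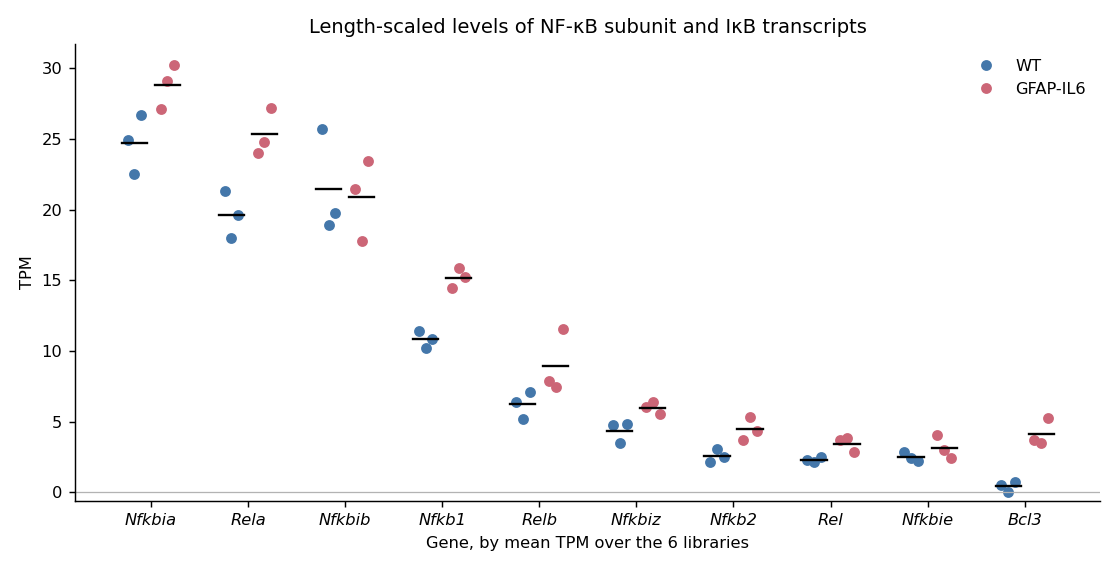
TPM (vertical axis) of the 10 genes in order of their mean over 6 libraries (horizontal axis), with a point for each WT or GFAP-IL6 library and a line at each group mean. Nfkbia, Rela and Nfkbib lie between 17.8 and 30.2 TPM, Nfkb1 between 10.2 and 15.9 TPM, and Bcl3 moves from the bottom of the order in WT to among Nfkb2, Rel and Nfkbie in GFAP-IL6.

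Because IkB proteins and subunits bind each other, their transcript levels were added within each library. These sums describe the 10 genes above and were given no test. The subunits summed to 43.5, 38.6 and 42.6 TPM in WT and to 53.8, 57.2 and 61.2 TPM in GFAP-IL6. The classical IkB genes summed to 53.5, 43.9 and 48.7 TPM in WT and to 52.7, 49.9 and 56.1 TPM in GFAP-IL6, with overlapping groups. The ratio of classical IkB to subunit transcripts was therefore 1.23, 1.14 and 1.14 in WT and 0.980, 0.871 and 0.917 in GFAP-IL6. With the gene lengths used, it was above 1 in every WT library and below 1 in every GFAP-IL6 library. Its place relative to 1 depends on these lengths, and other lengths were not tested. The ratio of nuclear to classical IkB transcripts was 0.0988, 0.0796 and 0.115 in WT and 0.186, 0.198 and 0.193 in GFAP-IL6. Bcl3 made up 0.915%, 0% and 1.39% of IkB transcripts in WT and 5.95%, 5.88% and 7.86% in GFAP-IL6. Within the subunits, the share of Rela was 47.3 ± 1.56% for WT against 44.1 ± 0.759% (SD, n = 3 each), while the ratios of Nfkb2 to Nfkb1 and of Relb to Rela overlapped between the groups. Transcript sums do not measure protein, and the amount of IkB protein is set largely by its degradation.

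**Figure D4:**
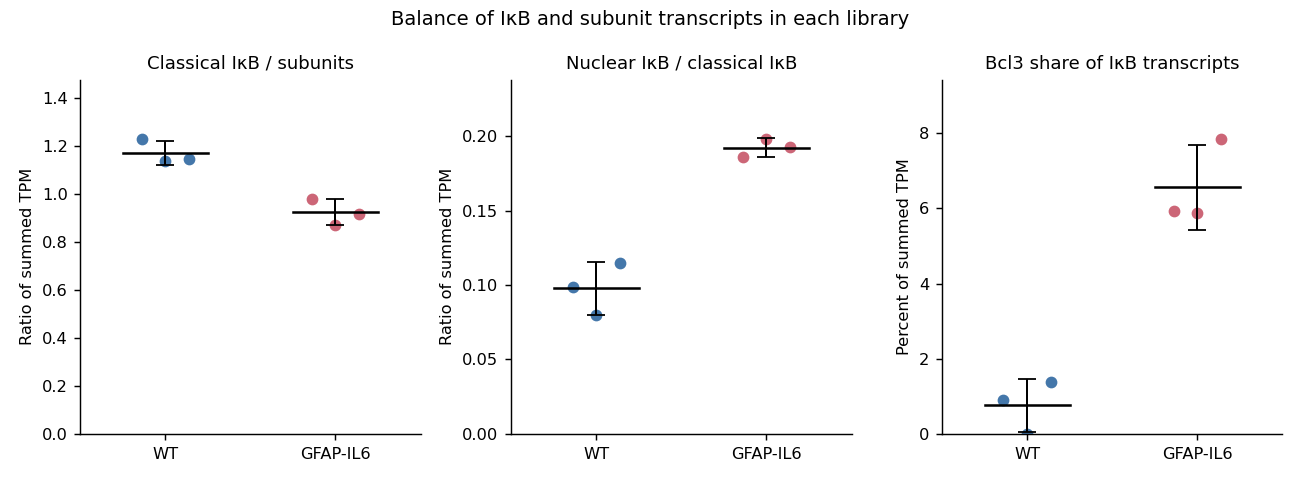
Ratio of classical IkB to subunit TPM, ratio of nuclear to classical IkB TPM, and Bcl3 as percent of IkB TPM (vertical axes, from 0) in 3 WT and 3 GFAP-IL6 libraries; points are libraries, and lines and bars are mean and SD. The first ratio is 1.14 to 1.23 in WT and 0.871 to 0.980 in GFAP-IL6, and the other 2 quantities are higher in every GFAP-IL6 library than in any WT library.

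The kinases and adaptors that act on IkB were read from the same fit. Of 23 genes listed, 22 passed the low-count filter. Of these, 1 rose, 0 fell and 21 did not pass an adjusted p of 0.05, where 2.65% of all genes tested were called as higher. The median log2 fold change of these 22 genes was 0.09. The gene that rose was Card10, a scaffold that links receptors to the IkB kinases in cells outside the blood lineage. It had 3.22, 3.22 and 4.33 CPM in WT and 6.72, 7.79 and 8.93 CPM in GFAP-IL6, without overlap. On the log2 scale Card10 rose by 1.11 ± 0.20 (SE) at an adjusted p of 0.00777, which became 0.0727 without GFAP-IL6 replicate 3, and the prior of DESeq2 gave a log2 fold change of 0.62. Map3k14, the kinase that starts Nfkb2 processing in the alternative pathway, had 4.18, 3.28 and 3.20 CPM in WT and 5.38, 6.08 and 6.48 CPM in GFAP-IL6, with a log2 fold change of 0.76 and an adjusted p of 0.0614. It passed the threshold without WT replicate 1 (0.0314) and without the low-count filter (0.0201). Ripk1, a kinase of the TNF receptor complex, had a log2 fold change of 0.49 with an adjusted p of 0.121.

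Other inhibitors and regulators of the pathway, such as deubiquitinases, gave no call. Of 16 genes listed 14 were tested, and 0 of them passed an adjusted p of 0.05 by edgeR, with 2 higher and 2 lower at an unadjusted p under 0.05, and the median log2 fold change was -0.01. Leaving out the low-count filter called Zfand5 as lower (adjusted p of 0.0467), and leaving out WT replicate 1 called N4bp1, which is named after its values were seen. Nfkbid, an atypical IkB protein outside the 10 genes, had 1.57, 2.45 and 2.51 CPM in WT and 4.57, 3.43 and 3.35 CPM in GFAP-IL6. For Nfkbid the log2 fold change was 0.79 ± 0.25 (SE) at an adjusted p of 0.121. Zfand5, a regulator that binds ubiquitin, had a log2 fold change of -0.30 with an adjusted p of 0.129.

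Genes known from general knowledge as NF-kB targets were examined last, in a list chosen with earlier results of these data known. Of 30 genes listed 14 passed the low-count filter, and 5 of these rose and 0 fell at an adjusted p under 0.05. The 14 had a median of 0.46 on the log2 scale, and 2.65% of all genes tested were called as higher. C3 and Ch25h passed the filter only through their levels in GFAP-IL6, so the count and median partly follow from the filter. The number that rose was 3 without GFAP-IL6 replicate 3, and 4 (Sele among them) without WT replicate 3. Several of these genes also answer to STAT or interferon signals, so the list is not specific to NF-kB. C3, the central complement component, had 0, 5 and 2 counts in WT against 50, 25 and 71 counts in GFAP-IL6, with a log2 fold change of 4.97 ± 0.53 (SE) and an adjusted p of 0.000169. It was 4.56 to 5.97 with any 1 library left out, highest without WT replicate 2, 6.41 after thinning and 1.14 under the prior of DESeq2. Ch25h, an enzyme that makes an oxysterol in macrophages and microglia, rose from 4, 2 and 7 counts to 18, 16 and 20 counts, a log2 fold change of 2.69 ± 0.42 (SE, adjusted p of 0.00296), and the prior of DESeq2 gave 0.51. Icam1, an adhesion molecule of activated endothelium and glia, rose from 2.44, 2.74 and 2.76 CPM to 6.28, 5.15 and 7.37 CPM, a log2 fold change of 1.24 ± 0.20 (SE, adjusted p of 0.00442), and the prior of DESeq2 gave 0.64. All 3 of these genes were called with each library left out in turn. Csf1, a growth factor for microglia, had a log2 fold change of 0.47 ± 0.11 (SE, adjusted p of 0.0319). Map3k8, a kinase that binds the Nfkb1 precursor, had one of 1.06 ± 0.24 (SE, adjusted p of 0.0339), or 0.43 under the prior of DESeq2. The calls of Csf1 and Map3k8 were lost with DESeq2 (adjusted p of 0.0561 and 0.0767), after thinning (0.0764 and 0.114) and in 3 and 5 of the 6 fits that left out a library. Those fits were without WT replicate 3, GFAP-IL6 replicate 1 or GFAP-IL6 replicate 3 for Csf1 (up to 0.175), and every fit but that without WT replicate 1 for Map3k8 (up to 0.144). Ptgs2, encoding an inducible cyclooxygenase, and Irf1, a transcription factor, had log2 fold changes of 0.44 and 0.62 with adjusted p of 0.0780 and 0.0803. Ptgs2 passed the threshold without GFAP-IL6 replicate 1 (0.0447) and both passed it without the low-count filter (0.0159 and 0.0188). The microglia and endothelial marker sums given above moved with these genes, and their part was not tested.

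The other 16 listed targets did not pass the low-count filter of the edgeR fit, among them the classical early cytokines. Tnf had 1, 4 and 1 counts in WT against 0, 1 and 2 counts in GFAP-IL6, and Il1b had 3, 8 and 4 and 10, 2 and 5 counts. Ccl2 had 0, 3 and 0 counts in WT against 5, 3 and 2 counts in GFAP-IL6. Ccl5 had 0, 2 and 0 against 3, 5 and 5 counts, and Bcl2a1b 1, 1 and 0 against 3, 3 and 5 counts. In CPM, Ccl2, Ccl5 and Bcl2a1b were higher in every GFAP-IL6 library than in any WT library, on counts near the floor. Cxcl2 and Ccl20 had 0 counts in all 6 libraries, which allows up to 0.179 to 0.396 CPM at the floor of 3 counts. Selp, encoding an endothelial selectin, had 0 counts in each WT library and 4, 2 and 7 counts in GFAP-IL6, and Sele had 1 count in each WT library and 6, 12 and 13 counts in GFAP-IL6. Lcn2, encoding a secreted protein of reactive glia, had 0, 1 and 0 counts in WT against 1, 21 and 15 counts in GFAP-IL6, so that GFAP-IL6 replicate 1 stood with WT. Sele was called as higher by DESeq2, and without the low-count filter edgeR called Sele, Selp, Lcn2 and Ccl5. With a library left out, Sele was called without WT replicate 1, 2 or 3 or GFAP-IL6 replicate 1, and Lcn2 without WT replicate 1, WT replicate 2 or GFAP-IL6 replicate 1. The genes of this paragraph were chosen for mention after their values were seen.

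**Figure D5:**
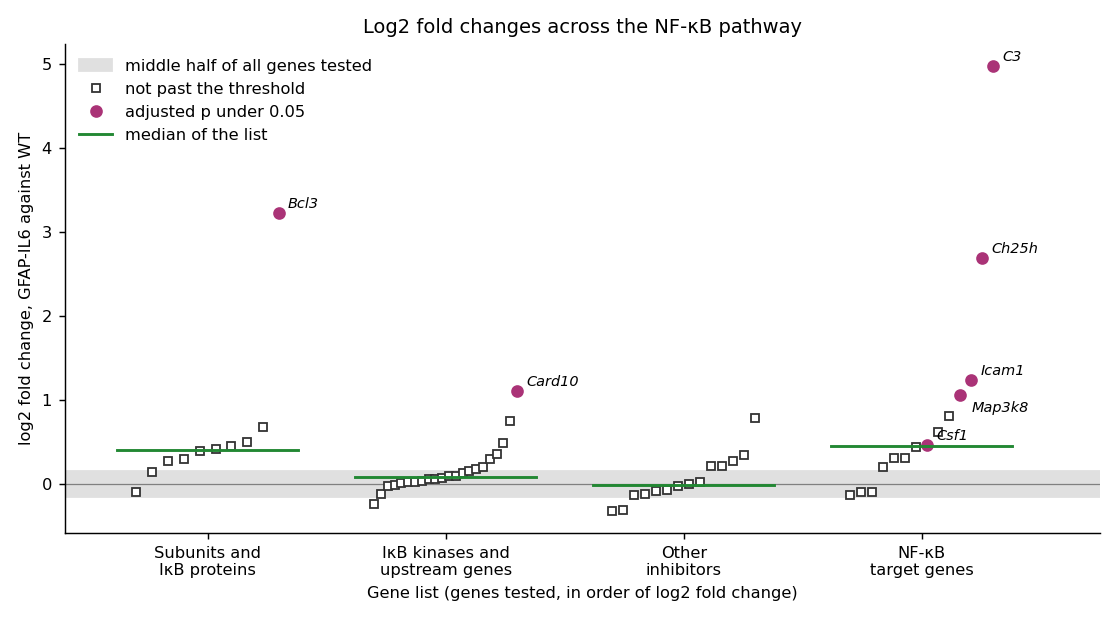
Log2 fold change of GFAP-IL6 against WT (vertical axis) of the genes tested in 4 lists (horizontal axis, in order within each list); filled points are past an adjusted p of 0.05 by edgeR, green lines are list medians and the grey band spans the quartiles of all genes. Called genes are Bcl3 among the subunits and IkB proteins, Card10 among 22 kinases and upstream genes, none among 14 other inhibitors, and C3, Ch25h, Icam1, Csf1 and Map3k8 among 14 targets.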

How the data were processed

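Groups and replicate numbers came from the sample titles. The authors deposited whole-number read counts per gene, not normalized, with a length per gene. The study's methods name alignment to mm10 with STAR (2.4 in the processing notes, which name hg19) and counting on GENCODE genes with featureCounts. Mouse identifiers in the table matched GENCODE M21 (GRCm38) for 32593 of 33000 genes. Use of strand in counting is not given in the sources used here.

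Counts of all genes were fitted in R 4.3.3 with edgeR 4.0.16 (quasi-likelihood F-test, TMM, filterByExpr, group as the only term), and p-values were adjusted by Benjamini-Hochberg over 15341 genes past the filter. Intervals are 95% and include the spread between mice. Floors of 3 counts cover counting error only. TPM used the table's lengths. Alternatives were DESeq2 1.42.0 with and without its prior, limma-voom (limma 3.58.1), other scaling and filters, thinning, a block and leaving out each library. The count fits were tested on simulated data. Counts of no pair of libraries agreed within sampling noise (chi-square per degree of freedom 2.23 to 20.1 over 15 pairs).

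The 10 genes and the gene lists were chosen with earlier results of these data known. Named were all 10 genes, every called gene of the pathway and target lists with up to 2 further genes of smallest p per list and genes sharing exons with a member. The genes most like each called gene, also part of the rule, are not reported here. Promoter windows came from RefSeq, and Nfkb1, Relb and Nfkbiz had no window.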

Additional observations from a re-analysis of the deposited data

How the results depend on the processing

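The number of the 10 genes past an adjusted p of 0.05 was 2 (Nfkb1 and Bcl3) in place of 1 with upper-quartile scaling, without the low-count filter, with a minimum mean of 1 CPM and with the replicate block, and between 0 (without GFAP-IL6 replicate 3) and 2 (without WT replicate 1) in the 6 fits that each left out a library. Called pathway genes (kinases, upstream genes and other inhibitors) numbered 3 without the low-count filter and 0 to 3 with a library left out, against 1. Called targets numbered 11 without the filter, 3 after thinning and 3 (without GFAP-IL6 replicate 3) to 7 (without WT replicate 1) with a library left out, against 5. All genes called numbered 1154 without the filter, 750 with the block, 1061 without WT replicate 1 and 187 without GFAP-IL6 replicate 3, against 439, and the cause was not tested. The log2 fold change of Nfkbib was between -0.18 (without GFAP-IL6 replicate 3) and 0.03 (without WT replicate 1, reversed). Of the alternative values of single genes among the 10, 143 kept direction and side of the threshold, 5 (all Nfkb1) newly passed it and 1 (Bcl3, without GFAP-IL6 replicate 3) lost it. Bcl3 had an adjusted p of 2.61e-07 to 0.0586 over 15 alternatives. Summed TPM of the 10 genes was 1.27 times higher in GFAP-IL6, and 1.21 times per kilobase of TMM-scaled CPM. The difference in library totals of -5.70 M counts was -7.34 to -4.69 M with a library left out.

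The labels give both groups the same replicate numbers but do not say that these mark shared litters or days. Correlations of same-numbered deviations from the group means were 0.123, 0.019 and 0.050, against -0.099 to 0.051 for pairs with different numbers. Whether the numbers mark a shared litter or day was not tested. With the replicate block Nfkb1 had an adjusted p of 0.0475 and Bcl3 one of 0.00418.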
